A study of Mus musculus with 30 samples.

Results

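The Ifi200 genes form a cluster on mouse chromosome 1 and encode the HIN-200 proteins, of which 6 were followed here: Ifi202b, Ifi203, Ifi204, Ifi209, Ifi214 and Mndal. All 6 were found among the 23013 gene rows of the table. They were chosen by name after their levels in these libraries had been seen, so each level and each difference below is a description of these mice and no independent evidence. The values came from 30 Seq-Well libraries of 8 organs, with 4 healthy and 4 arthritic mice. Seq-Well captures single cells with barcoded beads in small wells and tags the 3′ end of each transcript.

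Only DBA1/J males were used. Collagen-induced arthritis (CIA) was raised by injecting bovine collagen II (100 µg, with adjuvant) and boosting on day 20, and by the study's methods the healthy controls had received saline. Arthritis scores were 0 for healthy animals (H3, H4, H6, H7), 8 for the CIA animals S1 and S2, 3 to 4 for S6 and 3 for S7. Blood (H3, H4, H6 and H7 against S2, S6 and S7) and draining lymph node (H3, H4, H6 and H7 against S1, S2 and S7) had replicate mice. Joint was taken from H3 and S1, and lung, muscle, skin, spleen and thymus from H6 and S1, so these 6 organs had 1 mouse per state and no test was made in them. Blood was prepared, by the study's methods, as mononuclear cells of a density gradient with red cells lysed, but haemoglobin genes held 3.75% to 58.7% of the units of the blood libraries, and neutrophil markers reached 73707 UPM.

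HIN-200 proteins carry a HIN domain that binds DNA, and most also carry a pyrin domain through which such proteins assemble. Aim2, at the edge of the cluster, senses DNA in the cytosol and forms an inflammasome, while Ifi202b lacks the pyrin domain and is known to hold Aim2 back. Ifi204 is often treated as the mouse counterpart of human IFI16, a sensor of foreign DNA, and many genes of the family are induced by interferons in macrophages and lymphocytes.

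Levels are given in units per 1000000 (UPM), the summed deposited signal of a gene in all barcodes of a mouse and organ, divided by the units of all genes and multiplied by 1000000. The libraries held 27 to 934 barcodes and 217494 to 7886790 units. Each barcode had been smoothed over its neighbours by the authors, and the 8282 barcodes held 4590 distinct profiles, so barcodes are not independent and 1 mouse was 1 replicate. Genes with very few units were largely absent from 19 libraries, therefore a value of 0 is reported as listed at 0. Library titles ended in CIA or 2CIA, and the labels do not say what this stands for. In blood the suffix 2CIA was on all 3 libraries of CIA mice and on 2 of 5 of healthy mice, and 13 barcode sequences occurred in 2 or more libraries, with no profile shared.

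The cluster spanned 682 kb (chr1:173349547-174031755, GRCm38), with 14 HIN-200 genes, of which 13 had a row in the table. The members lay in the order Ifi214 (chr1:173521311-173535957), Ifi209 (chr1:173630859-173647928), Ifi204 (chr1:173747293-173767069), Mndal (chr1:173857215-173880382), Ifi203 (chr1:173920400-173942866) and Ifi202b (chr1:173962569-173982844), and none overlapped another annotated gene. The sequences before the start sites are shown because the genes that were most alike in level were also most alike there. They are RefSeq promoter sequences on GRCm38.p6, read 5′ to 3′ on the strand of the gene, and 5 of the 6 members were in that table, all but Ifi204. Capitals mark a match to the core of the interferon-stimulated response element, GAAANNGAA, or in Ifi202b to the gamma-activated site, TTCNNNGAA. Shown for Ifi214 (chr1:173535958-173536107, minus strand), Ifi209 (chr1:173630709-173630858, plus strand) and Ifi202b (chr1:173982845-173982994, minus strand) are the 150 bases before the start, and for Ifi203 (chr1:173942508-173942537, minus strand) and Mndal (chr1:173880204-173880233, minus strand) 30 bases around the match, which lie inside the annotated gene.
Ifi214: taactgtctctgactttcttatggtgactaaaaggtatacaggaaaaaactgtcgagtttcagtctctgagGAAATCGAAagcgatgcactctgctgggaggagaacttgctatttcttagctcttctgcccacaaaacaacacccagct
Ifi209: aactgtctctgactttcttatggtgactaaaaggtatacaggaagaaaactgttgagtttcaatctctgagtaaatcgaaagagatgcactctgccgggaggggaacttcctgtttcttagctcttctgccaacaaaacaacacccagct
Ifi203: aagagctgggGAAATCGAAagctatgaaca
Mndal: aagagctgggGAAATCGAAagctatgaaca
Ifi202b: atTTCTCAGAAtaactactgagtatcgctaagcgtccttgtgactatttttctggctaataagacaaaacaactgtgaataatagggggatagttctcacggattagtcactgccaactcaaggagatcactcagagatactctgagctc

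Over the 250 bases before the start, Ifi214 and Ifi209 were 94.4% identical and Ifi203 and Mndal 89.3%. Every other pair stood at 50.0% to 53.7%. The 30 bases shown for Ifi203 and Mndal were the same letter for letter. Ifi203 and Mndal have another annotated start each, and the identity and the bases shown are for the start with the match on the strand of the gene. The response element core, searched on both strands, began 79 bases before the start of Ifi214, 35 before that of Ifi203 and 36 before that of Mndal, and was in 7.13% of 32851 promoter windows of the same length. Mndal had another match at its other start, 53 bases before it on the opposite strand. The gamma-activated site began 148 bases before the start of Ifi202b and was in 7.02% of all windows. Ifi209 matched neither pattern in its window. A match describes letters only, and binding was not measured.

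Because near-identical genes can share reads, the 3′ ends that Seq-Well tags were compared among the 14 genes in GENCODE transcripts. Of the 50-base stretches in the last 400 bases, Ifi209 and Ifi214 shared 63.8% with each other, so reads could have been split between these genes and their values are uncertain. Mndal shared 17.1% of its stretches with Ifi211 and Ifi205. Ifi202b, Ifi203 and Ifi204 shared none of theirs there with another gene of the cluster. Over the whole transcript Ifi202b again shared none, but Ifi204 shared 29.9% with other genes of the cluster (23.2% with Ifi211 and 8.5% with Mndal), Ifi203 10.6% (5.18% with Mndal) and Mndal 27.2%. The reads had been aligned to the C57BL/6J genome while the mice were DBA1/J, and the effect of strain differences in this cluster on the counts was not tested.

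Ifi202b was the member with the widest range of levels. It was high in lung and skin and low in lymph node and healthy blood. In lung it stood at 415 UPM in H6 and 1735 in S1, the highest level of any member in the 26 mouse-by-organ sums. In skin it was 811 in H6 and 751 in S1. In muscle it was 61.2 in H6 and 522 in S1, in spleen 42.2 and 294, and in thymus 79.0 and 106. In joint it was 134 in H3 and 267 in S1, where the libraries of S1 stood at 231 and 752. It was thus higher in the CIA mouse in 5 of 6 organs with 1 mouse per state, but these pairs have no replicate check. Except in joint, the state in these organs cannot be told apart from the title suffix, since the CIA library carried 2CIA and the healthy one CIA. Markers of the labelled tissue were present in skin (5 of 5 keratinocyte markers) and thymus (6 of 6 thymocyte markers). No set was particular to spleen or joint. In spleen 8 of 8 B cell markers and in joint 6 of 6 fibroblast markers were above 0, but other organs held these too. In muscle of H6, however, 2 of 5 muscle markers were above 0 and summed to 60.6 UPM, against 3713 in S1. In lung 1 of 5 endothelial markers was above 0 in H6 and 0 in S1. Sums of other cell type markers also differed between the mice of a pair. In spleen of H6 and S1 monocyte markers summed to 319 and 1300 UPM and neutrophil markers to 4376 and 97466. In lung monocyte markers summed to 1541 and 2653 UPM, neutrophil markers to 496 and 17471, and macrophage markers to 1629 and 389. In muscle macrophage markers summed to 48.3 and 1047 UPM, fibroblast markers to 496 and 11993, and neutrophil markers to 104171 and 18349. The part of these differences in cell make-up in the levels of Ifi202b was not tested.

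Ordered by the mean of the states, Ifi202b ran from lung (1075 UPM) and skin (781) through blood (297), muscle (292), joint (201), spleen (168) and thymus (92.5) to lymph node (21.7). Blood and muscle did not differ beyond the spread between blood mice, whose SD was 528 UPM in CIA. In lymph node Ifi202b was listed at 0 in H3, H6 and S2 and reached 59.6 in S1, so the states overlapped.

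Ifi204, which was highest in CIA blood and CIA muscle, showed a similar pattern at a lower level. It was 26.7 UPM in muscle of H6 and 265 in S1, 60.8 and 120 in skin, 31.4 and 128 in lung, 24.1 and 54.2 in spleen, and 38.1 and 42.5 in joint of H3 and S1. In thymus it was 11.03 in H6 and listed at 0 in S1. In lymph node it ranged from 0 to 41.4 in healthy mice and from 16.6 to 35.4 in CIA mice. Ifi202b and Ifi204 together made up 93.8% and 92.6% of the units of the 6 genes in lung of H6 and S1, and 91.0% and 92.2% in skin.

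**Figure D1:**
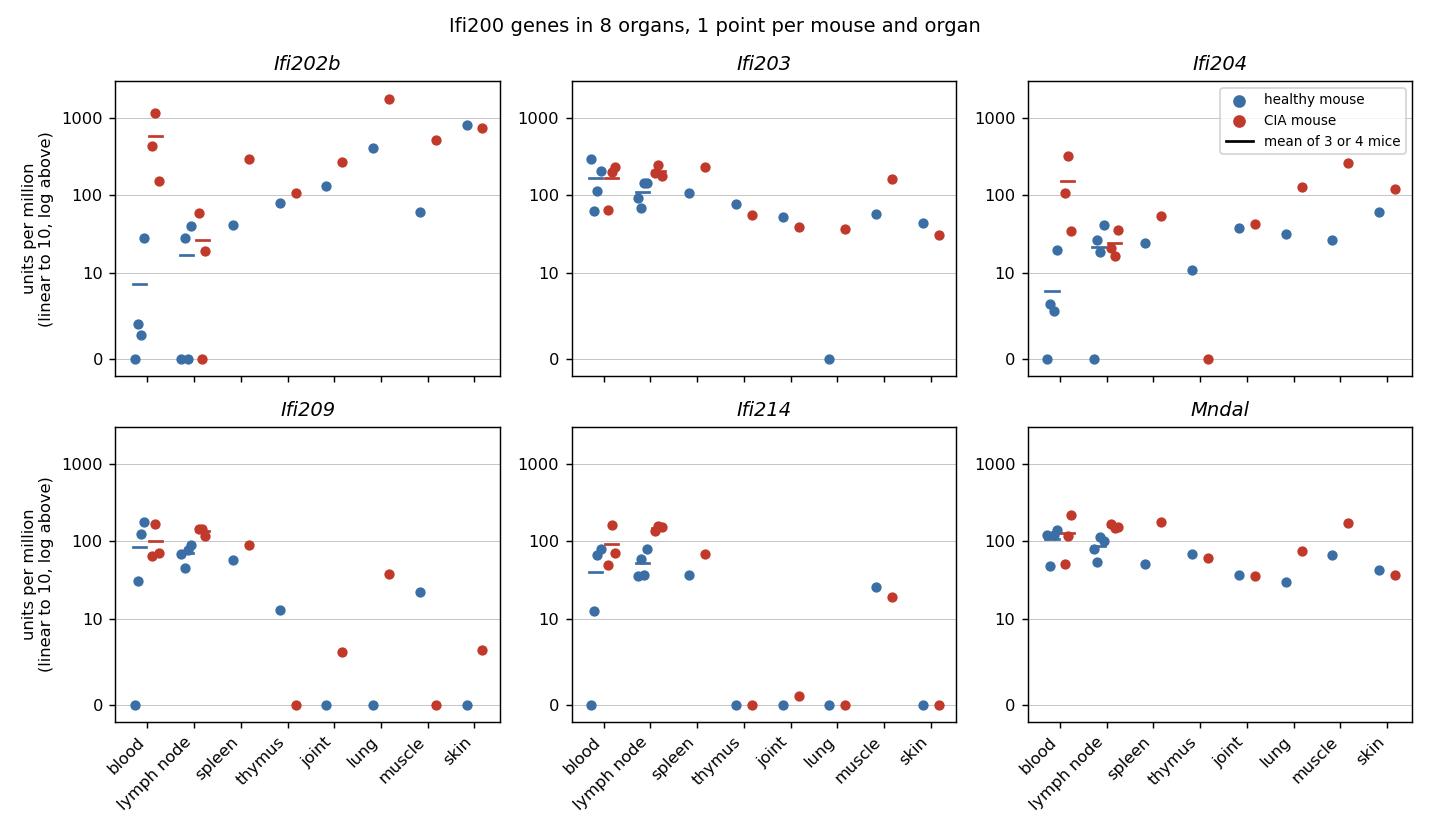
Level of each gene in UPM (vertical axis, linear to 10 and logarithmic above) by organ, with 1 point per mouse, blue for healthy and red for CIA, and a line at the mean where there were 3 or 4 mice. Ifi202b reached 1735 UPM in lung of S1 and was 0 to 28.1 in healthy blood, while Ifi214 was listed at 0 in lung, skin and thymus.

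Averaged over the states, Ifi203, Ifi209 and Ifi214 were highest in blood, lymph node and spleen. In thymus, whose T cell marker sums were the highest (8884 UPM in H6 and 7136 in S1), they averaged 66.8, 6.47 and 0 UPM. Mndal stood at 121 UPM in lymph node, 118 in muscle, 116 in blood and 112 in spleen. These levels of Mndal did not differ beyond the spread between blood mice (SD 40.3 in healthy and 82.3 in CIA mice). Ifi203, a protein with pyrin and HIN domains, averaged 170 UPM over the states in spleen, 169 in blood and 159 in lymph node, values that did not differ beyond the spread between mice (SD 104 in healthy blood). It was lowest in lung, listed at 0 in H6 and at 37.3 in S1. Mndal, which has the same domain order, was the only member above 0 in all 26 sums, from 29.3 UPM in lung of H6 to 214 in blood of S7. Ifi203 was 0.506 to 2.5 times Mndal in the 25 sums where both were above 0, with a median of 1.18.

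Ifi209 reached 174 UPM in blood of H7 and Ifi214 161 in blood of S6. Outside blood, lymph node and spleen Ifi209 was at most 37.3 UPM, in lung of S1, and Ifi214 at most 25.5, in muscle of H6. Ifi214 was listed at 0 in both mice in lung, skin and thymus. Ifi209 was listed at 0 in H6 and H3 and at 37.3, 6.34 and 6.14 UPM in S1 for lung, skin and joint. Genes with few units were present in some of these libraries and largely absent from others, and the part of this in the zeros was not tested.

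**Figure D2:**
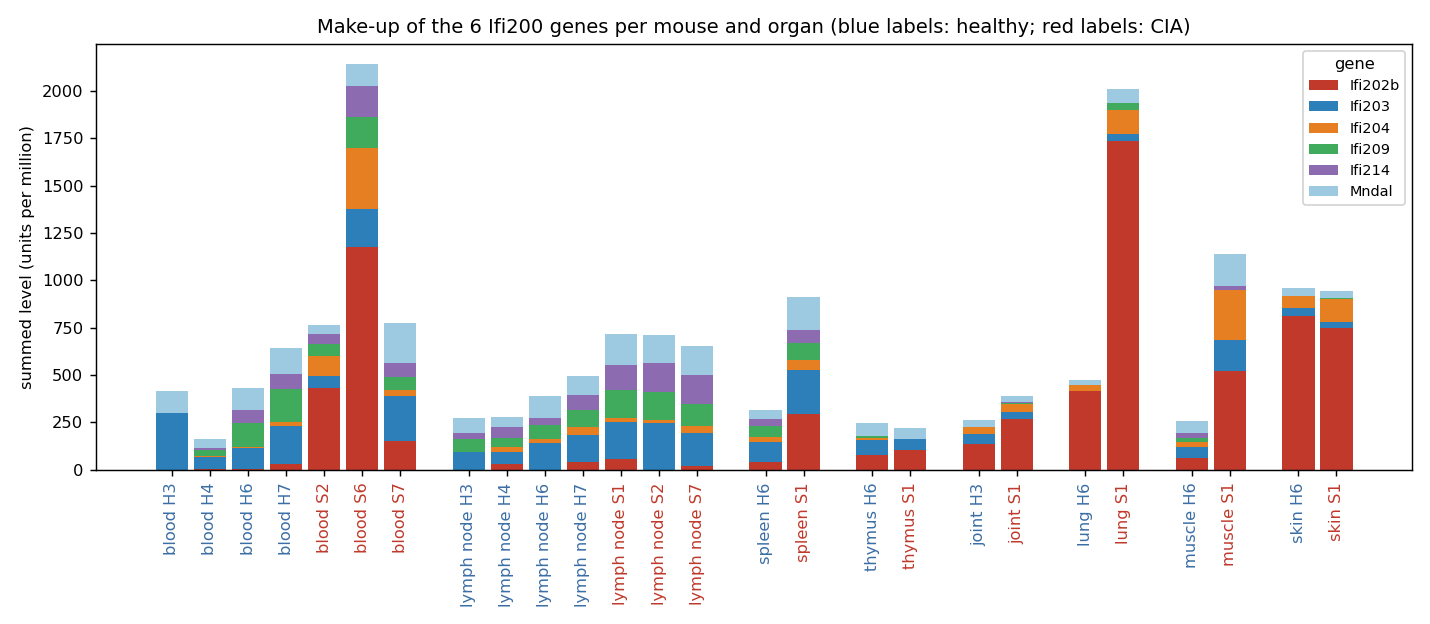
Summed level of the 6 genes in UPM (vertical axis from 0) for each of 26 mouse-by-organ sums, with 1 colour per gene and labels in blue for healthy and red for CIA mice. The sum reached 2140 UPM in blood of S6 and 2011 in lung of S1, and Ifi202b made up 86.3% of the latter.

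In blood the make-up of the cluster differed between the states, and Ifi202b and Ifi204 were higher in every CIA mouse than in any healthy mouse. Ifi202b was listed at 0 in H3 and stood at 4.10 in H4, 2.81 in H6 and 28.1 UPM in H7. Among CIA mice, S2 stood at 431, S6 at 1174 and S7 at 153 UPM. The means were 8.76 ± 13.02 (SD, n = 4) and 586 ± 528 UPM (SD, n = 3), and the groups did not overlap. With haemoglobin genes taken out of the total, Ifi202b became 8.61 in H4 and 700 UPM in S2, and the groups, at 0 to 34.7 and 163 to 1265, again did not overlap. The CIA values rested on 800 units in S2, 481 in S6 and 93 in S7, from libraries of 173, 62 and 97 barcodes. These barcodes held 71, 22 and 33 distinct profiles, so the same units were counted in several barcodes and the basis is smaller than the units say.

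The log2 difference of Ifi202b was 4.76 (SE 0.93, 95% interval 2.84 to 6.69), with an adjusted p of 0.0240 from limma, the 6th smallest p of 4416 genes. Its healthy mean lay under the minimum of 25 UPM for the fit, as did that of Ifi204, so both genes entered the fit through the CIA group, in which they were high. In that fit 16 genes were called at an adjusted p under 0.05, 0.362% of those tested, and 1 of the 6 members was among them. Over its alternatives the adjusted p of Ifi202b ran from 0.000295 to 0.327, and the log2 difference from 4.05 to 6.45. The call was lost with a pseudocount of 1 (6.45), without a mean-variance trend (4.76), and without H4 (4.70, limma adjusted p 0.154), S2 (4.76, 0.258) or S6 (4.05, 0.149). With a mouse left out the difference ran from 4.05, without S6, to 5.48, without S7. Both healthy blood libraries with the suffix 2CIA, from H3 and H4, listed Ifi202b at 0, as well as Ifi204, Ifi209 and Ifi214. They held 27 and 95 barcodes, and genes with few units were largely absent from that of H4, so a difference within this suffix would be one against 0 and is not given. The median of all genes was -0.10 on this scale, and -0.55 and -0.37 under trimmed-mean and median-of-ratios scaling, under which Ifi202b stood at 4.34 and 4.51.

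Ifi204 was listed at 0 in blood of H3 and stood at 6.36 in H4, 5.62 in H6 and 19.8 UPM in H7, against S2 with 107, S6 with 320 and S7 with 34.6 UPM. The groups did not overlap, with means of 7.95 ± 8.41 (SD, n = 4) and 154 ± 148 (SD, n = 3). Its log2 difference was 2.85 (SE 1.02), and it did not pass the test (limma adjusted p 0.503). With a mouse left out it ran from 2.12 to 3.56, with a pseudocount of 1 it was 4.25, and it passed in none of its 14 alternatives (limma adjusted p 0.260 to 0.958). Of the 4416 genes, 4.96% lay higher in all CIA than in all healthy mice, and 2 of 6 members did.

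The other members overlapped between the states in blood. Healthy mice had 63.8 to 299 UPM of Ifi203 and CIA mice 64.2 to 235, and Mndal 47.2 to 138 and 50.7 to 214. Ifi209 ranged from 0 to 174 in healthy and from 63.6 to 168 in CIA mice, and Ifi214 from 0 to 78.6 and from 48.5 to 161. Their log2 differences lay between -0.00 for Ifi203 and 1.40 for Ifi214 (limma adjusted p 0.681 to 1.00). H3, the blood library of 27 barcodes, weighed on the genes it listed at 0, since without H3 the difference of Ifi209 went from 0.84 to 0.0092 and that of Ifi214 from 1.40 to 0.80 (limma adjusted p 0.999 and 0.914). In 2CIA libraries alone Mndal, listed at 0 in that of H4, went from 0.12 to 1.73 (limma adjusted p 0.958). Without haemoglobin genes in the total, Ifi203 became 134 UPM in H4 and 104 in S2, and the groups still overlapped. The 95% interval of Ifi203 was -1.47 to 1.47, so a difference of either sign within it was not detectable here. The share of Ifi202b and Ifi204 in the units of the 6 genes was 0% to 7.44% in healthy blood, 70.3% in S2, 69.8% in S6 and 24.2% in S7.

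Monocyte markers were also higher in all CIA than in all healthy blood samples. The summed level of 10 monocyte markers lay between 159 and 437 UPM in the healthy group and between 934 and 3248 in the CIA group. Of these genes 5 to 10 were above 0 per mouse in either state. Ly6c2, Ccr2, F13a1, Ms4a6c and Ms4a4c each lay higher in every CIA mouse than in any healthy mouse. Fn1, Chil3, Csf1r, Ear2 and Ace overlapped between the states. Fn1, Chil3, Ear2 and Ace were listed at 0 in S6 and S7, and Csf1r was listed at 0 in S7. The sum of 9 neutrophil markers overlapped between the states, at 1655 to 5418 UPM in the healthy and 5235 to 73707 in the CIA group. In S2, S6 and S7 the monocyte sums were 2858, 3248 and 934 UPM and the neutrophil sums 63067, 5235 and 73707. The sum of 9 T cell markers was 386 to 1660 in healthy and 204 to 288 in CIA blood. Of these markers 7 to 9 were above 0 in healthy mice, but 7 in S2, 1 in S6 and 2 in S7. Genes with few units were largely absent from the blood libraries of S6 and S7, and from those of H7 and H4 with 2CIA. A sum over barcodes cannot tell more cells of a type from more RNA per cell, and the part of cell make-up in the difference was not tested.

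To see where the signal lay, barcodes were grouped by the marker set that led in them, out of 15 sets and at no less than 2-fold over the median sum, and 8092 of 8282 barcodes fell into a group. This is a description, since barcodes are smoothed, and 19.4% of them lay near a boundary. Where the monocyte markers led, Ifi202b had a median of 860 UPM over 7 mouse sums with at least 10 such barcodes. It was 410 UPM in blood of H7, 860 in S2 and 2676 in S6, 2390 in lung of S1 and 1447 in spleen of S1, but 60.8 in lymph node of S7. Where macrophage markers led it was 410 to 434 over 3 sums, and where fibroblast markers led 39.5 to 793 over 6. Neutrophil-led barcodes, 13.96% of all, ran from 0 to 2009 UPM over 9 sums with a median of 46.3, and the highest was lung of S1. In blood they stood at 11.4 in H7, 15.7 in S2 and 46.3 in S7. Erythroid-led barcodes reached 416 in blood of S2 and plasma cell-led ones 735 in lung of S1, with medians of 2.13 over 10 sums and 0 over 7. In keratinocyte-led barcodes of skin it was 1446 in H6 and 655 in S1. In groups led by B cell and T cell markers its medians were 12.5 and 17.5 UPM, each over 12 sums, and the T cell group reached 105 in thymus of S1.

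In blood the monocyte-led barcodes held 37.8% of the Ifi202b units in S2, 89.6% in S6 and 60.2% in S7, and made up 21.4%, 30.6% and 7.22% of the barcodes. In the other barcodes Ifi202b stood at 331 UPM in S2, 201 in S6 and 68.2 in S7, and at 0 to 21.7 in healthy mice. Ifi204 there was 76.5, 109 and 25.8 UPM in CIA and 0 to 17.8 in healthy mice. Since barcodes were smoothed over neighbours, the others can also hold monocyte signal, and these values do not separate the cell types.

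**Figure D3:**
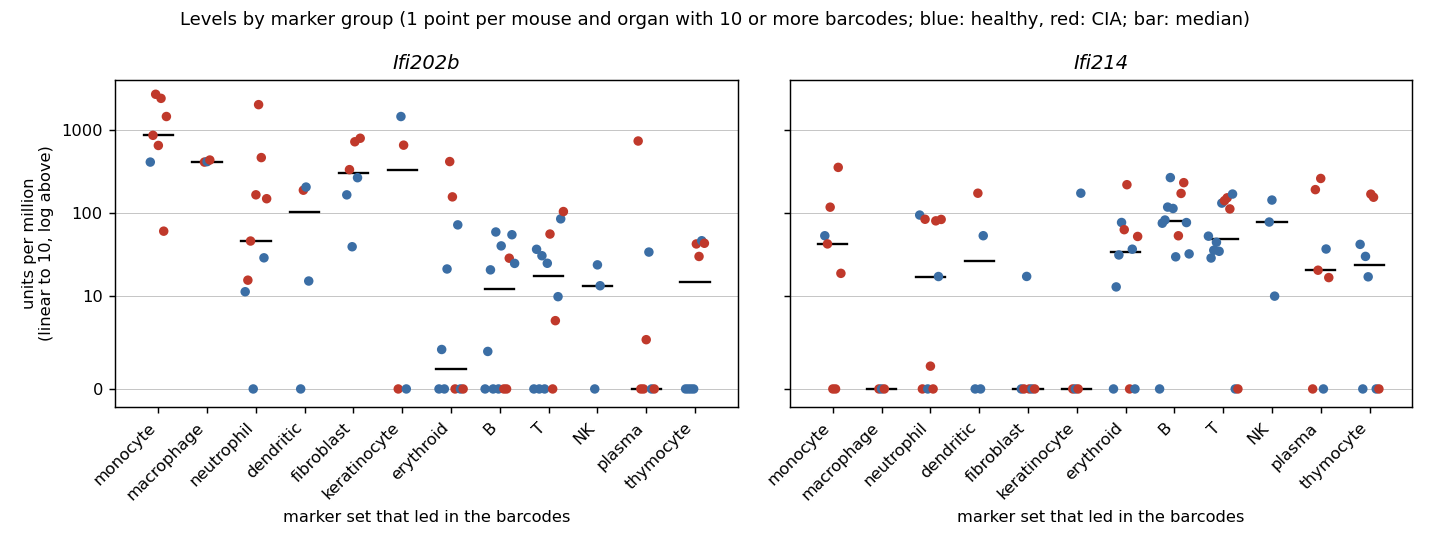
Level of Ifi202b and Ifi214 in UPM (vertical axes, linear to 10 and logarithmic above) in barcodes grouped by the marker set that led in them, with 1 point per mouse and organ with at least 10 barcodes, blue for healthy and red for CIA, and a bar at the median. The medians of Ifi202b were 860 in the monocyte and 12.5 in the B cell group, and those of Ifi214 were 42.7 and 79.9.

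In lymph node the other 4 genes were the ones that separated the states. Ifi203, Ifi209, Ifi214 and Mndal were each higher in all 3 CIA mice than in any of 4 healthy mice, whereas Ifi202b and Ifi204 overlapped and averaged 21.0 and 22.7 UPM, under the minimum of 25 for the fit. Ifi214 stood at 35.2 in H3, 58.3 in H4, 36.8 in H6 and 79.6 UPM in H7, while S1 had 134, S2 154 and S7 151 UPM. Ifi203 was 92.8, 68.0, 144 and 145 UPM in H3, H4, H6 and H7 and 194, 248 and 176 in S1, S2 and S7. In the same order Mndal was 78.7, 53.7, 112 and 99.7 UPM in healthy and 165, 148 and 153 in CIA mice.

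For Ifi209 the healthy nodes had 44.7 to 88.8 UPM and the CIA nodes 117 to 145, again with no overlap. All 4 tested members thus lay higher in each CIA mouse, as did 2.78% of 5081 genes. Ifi209 and Ifi214, which can share reads, do not count as separate observations. None of the 4 passed the test, in a fit that called 0.0197% of genes. The log2 difference of Ifi214 was 1.38 (SE 0.35, 95% interval 0.64 to 2.12, limma adjusted p 0.803), the 6th smallest p of 5081. Those of Ifi203, Ifi209 and Mndal were 0.87, 0.90 and 0.83 (SE 0.34 each, limma adjusted p 0.999). In libraries with the suffix 2CIA alone the differences of Ifi214 and Ifi209 were 2.81 and 2.35 (limma adjusted p 0.479 and 0.826), with both genes listed at 0 in the healthy library of H4.

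Ifi214 is given here by library and suffix as a description. It was 0 and 35.2 UPM in the healthy lymph node libraries with 2CIA and 131 to 154 in the CIA ones. With the suffix CIA it was 36.8 to 94.2 in healthy libraries and 180 in that of S7 alone. The 0 was from H4, in a library from which genes with few units were largely absent. H4 and S7 had libraries with both suffixes, so the suffixes are not independent sets. Monocyte markers summed to between 313 and 433 UPM in healthy nodes and between 539 and 661 in CIA nodes, with 4 of 10 above 0 in each mouse. B cell markers (768 to 1788 and 983 to 1600) and T cell markers (2237 to 4321 and 2116 to 2762) overlapped. Of the monocyte markers above 0, only Ly6c2 and Ms4a4c lay higher in every CIA node than in any healthy one. Ccr2 and Ms4a6c overlapped between the states. The other monocyte markers, F13a1, Fn1, Chil3, Csf1r, Ear2 and Ace, were listed at 0 in every node.

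Within the lymph node, barcodes led by B cell markers gave Ifi203 values of 0 to 106 UPM for the 4 healthy mice and 203 to 276 for the 3 CIA mice, and Mndal at 0 to 59.4 and 160 to 189. In those led by T cell markers Mndal was 54.2 to 134 and 146 to 164, while Ifi203 overlapped at 74.2 to 205 and 160 to 271. Ifi214 overlapped in both groups, at 29.9 to 267 and 53.5 to 232 UPM in the B cell and 34.8 to 132 and 112 to 153 in the T cell group. Ifi209 also overlapped in both, at 56.3 to 267 and 111 to 195 UPM in the B cell and 34.7 to 154 and 79.2 to 157 in the T cell group. The B cell groups held as few as 14 barcodes in a mouse. The share of all genes that separate the states within these groups was not computed, so the lack of overlap is a description and no result about these genes.

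**Figure D4:**
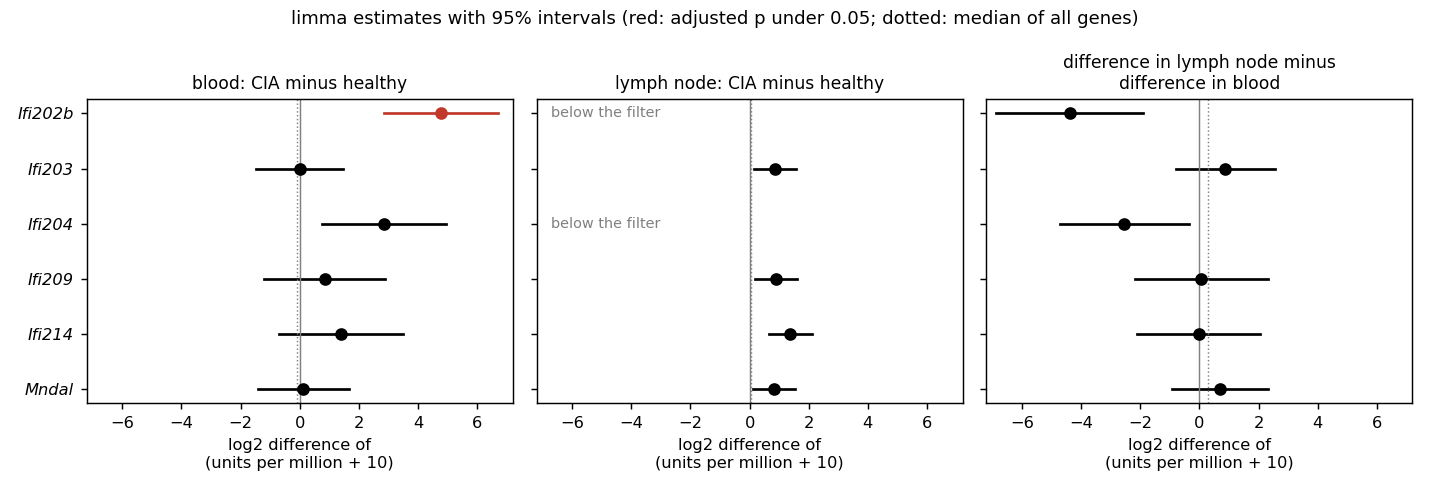
Fitted log2 difference with its 95% interval (horizontal axis) for each gene (rows) in blood, in lymph node, and between the organs, with a dotted line at the median of all genes and red for an adjusted p under 0.05. Ifi202b in blood, at 4.76, is the only estimate in red, and Ifi202b and Ifi204 were below the filter in lymph node.

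Whether the difference between states differed between the organs was asked by the interaction of organ and state, given here as the difference in lymph node minus that in blood. It was -4.38 for Ifi202b (SE 1.19, limma adjusted p 0.393) and -2.54 for Ifi204 (SE 1.05, limma adjusted p 0.537), and between -0.02 and 0.87 for the other 4. With a mouse left out Ifi202b ran from -5.15 to -3.65, Ifi204 from -3.48 to -1.81, Ifi203 from 0.19 to 1.29 and Mndal from 0.25 to 1.17. Ifi202b and Ifi204 entered this fit through CIA blood, at 586 and 154 UPM, since their means in the other 3 groups were 8.76 to 26.3 and 7.95 to 24.3. The fit called 0% of 4810 genes in limma, with 376 at an unadjusted p under 0.05, so a difference between the organs was not established for any member. The median of all genes was 0.29. Some mice gave both organs, and with the mouse as a replicate block, which keeps only mice with both organs, the value for Ifi202b was -4.34 (limma adjusted p 0.748).

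Between healthy lymph node and healthy blood of the same 4 mice, 0 of the 4 tested members were called, against 0.0399% of 5015 genes. Log2 differences, positive where lymph node was higher, were -0.42 for Ifi203, -0.23 for Mndal, 0.46 for Ifi209 and 0.77 for Ifi214 (limma adjusted p 0.569 to 0.831). For Ifi209 the group means ran the other way, at 69.5 UPM in lymph node and 82.6 in blood, where H3 listed it at 0. With a mouse left out Ifi203 ran from -0.66 to -0.031 and Mndal from -0.36 to -0.13. Ifi209 then ran from -0.37 to 0.91 and Ifi214 from 0.31 to 1.26. The median of all genes was 0.41.

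The levels of the members fell into pairs over the 26 sums. Pearson's r of log2(UPM + 10) was 0.90 between Ifi209 and Ifi214, 0.87 between Ifi203 and Mndal, and 0.80 between Ifi202b and Ifi204. Ifi202b was inversely related to Ifi203 (-0.42), Ifi209 (-0.33), Ifi214 (-0.33) and Mndal (-0.27). Over the 14 sums of blood and lymph node alone the pairs stood at 0.91, 0.88 and 0.91, while Ifi202b stood at -0.00 to 0.43 with the other 4. The sums share mice, libraries and cell make-up, so these are descriptions. The pairs were those of the promoter sequences above in the case of Ifi209 with Ifi214 and Ifi203 with Mndal.

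**Figure D5:**
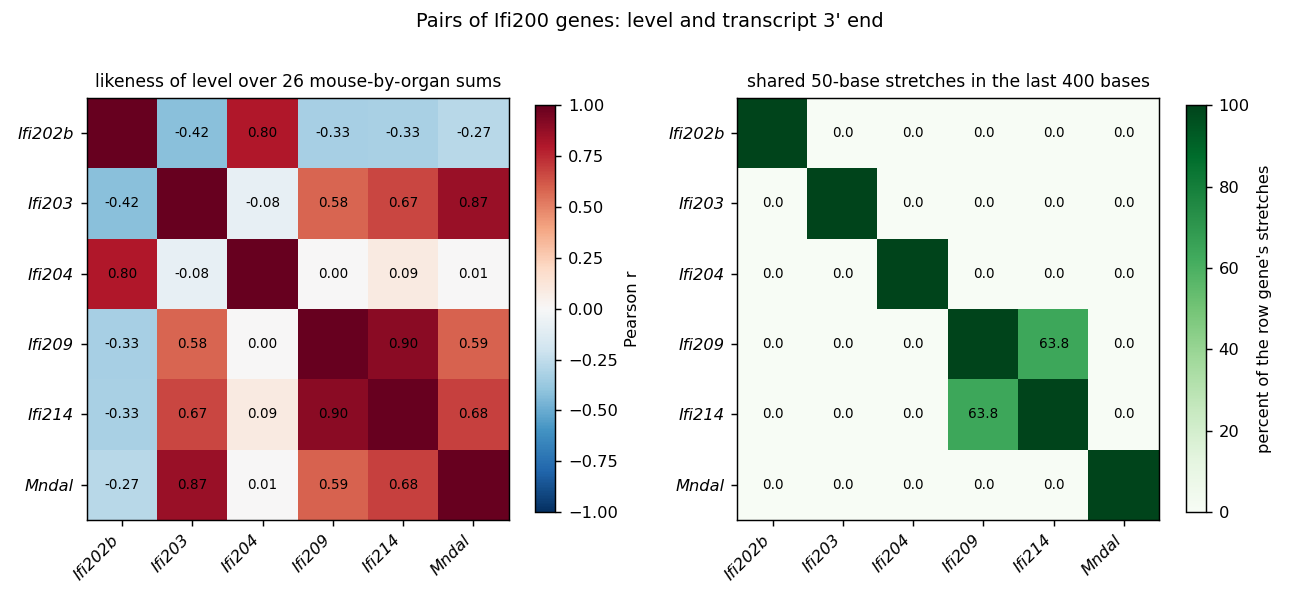
Left, Pearson's r between the levels of each pair of genes over 26 mouse-by-organ sums (colour from -1 to 1). Right, percent of the 50-base stretches in the last 400 bases of the row gene's transcript that the column gene also holds. Ifi209 and Ifi214 stand out in both, at 0.90 and 63.8%, while Ifi203 and Mndal reached 0.87 with 0% shared.

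Among 5416 genes averaging 25 UPM or more, the nearest to Ifi202b were Ifi211 (0.88), Rnd3 (0.87) and Ccl2 (0.86), a chemokine that attracts monocytes. For Ifi204 they were Ifi211 (0.81), Ifi202b (0.80) and Gm7676 (0.78). For Ifi203 they were Mndal (0.87), Il2rg (0.80), a shared chain of cytokine receptors of lymphocytes, and Add1 (0.78). Mndal was nearest to Ifi203 (0.87), Slfn8 (0.78) and the gene with Entrez number 628847 (0.71). Ifi209 was nearest to Ifi214 (0.90), Ighd (0.89), the heavy chain of IgD on B cells, and BE692007 (0.86), and Ifi214 to Ifi209 (0.90), H2-T23 (0.90) and Gm8369 (0.89). Over the 14 sums of blood and lymph node alone some fell. Mndal stood at 0.44 with Slfn8 and 0.41 with gene 628847, and Ifi203 at 0.58 with Il2rg and 0.50 with Add1. Ifi209 stood at 0.51 with BE692007 and Ifi214 at 0.71 with Gm8369, and the others at 0.79 to 0.91.

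Other genes of the cluster shared these patterns in part. Ifi211 was 0 to 31.4 UPM in healthy blood and 127 to 505 in CIA blood, and reached 625 in lung of S1. Ifi207 was 0 to 12.2 and 41.2 to 237 in blood, and reached 428 in muscle of S1. Their log2 differences in blood were 3.64 and 3.30, and neither passed (limma adjusted p 0.159 and 0.364). Ifi205 reached 277 UPM in muscle of S1, Aim2 122 in blood of S6 and the pseudogene Ifi203-ps 110 in lymph node of H6. Ifi208 and Ifi213 were at most 45.01 and 30.5 UPM. The pseudogene Gm18445, next to Ifi202b, was above 0 in 8 of 26 sums and stood at 485 UPM in skin of H6 and 201 in S1, and whether it shares reads with Ifi202b was not tested.

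The members were also read beside lists of interferon genes. Of 34 type I interferon response genes outside the cluster, 17 passed the filter in blood, and 2 were called, Ifi27l2a (log2 difference 3.83, limma adjusted p 0.00299) and Ifitm3 (4.21, limma adjusted p 0.00442), which blocks virus entry. Of all genes tested in blood 0.362% were called. In lymph node, where 0.0197% of all genes were called, 15 passed and 1 was called, Ifi27l2a (2.55, limma adjusted p 0.00132), and the next, Xaf1, was not (1.54, limma adjusted p 0.803). The filter takes the mean over both states, so a listed gene can pass through the state in which it is high. Among healthy samples of both organs 8 of the 34 passed, and no median over the genes that passed is given for any list.

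Of 21 interferon-gamma response genes, 7 passed the filter in blood and 13 in lymph node, and 0 were called in either. Of 13 interferon signalling genes 7 and 9 passed with 0 calls, and Irf9, a subunit of the factor that binds the response element, stood at 2.13 in lymph node (limma adjusted p 0.930). Of 14 DNA-sensing genes, 11 of them in the table, 5 and 4 passed, with 0 calls. At an unadjusted p under 0.05, limma had 403 genes in blood and 201 in lymph node.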

How the data were processed

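The authors aligned Seq-Well reads of the pilot libraries to GRCm38 with STAR, counted molecules with Drop-seq tools, filtered cells and smoothed each library over nearest neighbours. The deposited signal is therefore a sum of whole numbers in which each barcode also holds its neighbours, not a count, and no counting interval was made. The 23013 rows carry Entrez numbers, of which 21404 were matched to symbols in a RefSeq table of GRCm38.p6. No column was left unmapped.

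Units were summed per mouse and organ and scaled to the total. Tests used limma 3.58.1 in R 4.3.3 on log2(UPM + 10) with a mean-variance trend, over genes averaging 25 UPM or more, two-sided, adjusted by the Benjamini-Hochberg method over all genes tested, with a threshold of 0.05. The pseudocount makes fitted differences of weakly expressed genes too small. The mouse was the replicate and replicates were told from the titles. The study's own test on single cells was not used, since cells are not replicates.

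Alternatives were a pseudocount of 1, no filter, other scalings, no trend, libraries as samples, 2CIA libraries alone, each mouse left out, and a mouse block. Mouse numbers pair blood and lymph node because the same animals gave both. All members and the 3 genes nearest to each were named, other genes of the cluster with their values, and of each list the called genes and at most 2 others. Members and lists were chosen with earlier results of these data known. Python 3.11.15, numpy 2.4.6 and pandas 2.3.3 were used. Sequences are from RefSeq and GENCODE. By the study's methods only primary alignments were kept, and how reads matching several paralogs were assigned is not given in the sources used here. No doublets were called here. The 1 cluster gene without a row, Ifi206, was not analysed here.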

Additional observations from a re-analysis of the deposited data

Results flagged for a closer look

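In healthy blood, Ifi202b in H7 (28.1 UPM) stood apart from H3, H4 and H6, with a gap to the next mouse of 0.854 of the range of the 4 mice. It was the 1 of 12 sets of 4 healthy mice (6 genes in blood and in lymph node) in which a mouse stood apart by this measure, and chance alone flags about 1 in 20. H7 was the only healthy mouse with 10 or more monocyte-led barcodes in blood, 13 of 934, which held 24.2% of its Ifi202b units. In its other barcodes Ifi202b stood at 21.7 UPM, and the part of the monocyte-led ones in its level was not tested.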

How the results depend on the processing

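In blood the number of called genes was 16, and it was 3 with a pseudocount of 1, 6 with trimmed-mean scaling, 0 without a mean-variance trend (with an Ifi202b log2 difference of 4.76), and 0 to 21 when each mouse was left out. The number of members called, 1, fell to 0 with a pseudocount of 1 and without the trend, and was 0 to 1 with a mouse left out. In lymph node the count of 1 became 9 without a filter, 0 without the trend, 3 in 2CIA libraries alone and 1 to 7 with a mouse left out. For the interaction it was 0 to 3 with a mouse left out, of which 0 were members. For healthy lymph node against blood the count of 2 became 0 with a pseudocount of 1, without the trend and in 2CIA libraries alone, 447 with each library as a sample, 0 with the mouse as a replicate block, and 0 to 283 with a mouse left out. The cause of these moves was not tested.

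Of 282 refitted member differences 27 turned direction, none of a called gene. In blood Mndal became -0.31 and -0.14 under trimmed-mean and median-of-ratios scaling and -0.33 to 0.61 with a mouse left out, and Ifi203 became 0.24 with each library as a sample, 0.13 in 2CIA libraries alone and -0.37 to 0.54 with a mouse left out. In the interaction Ifi209 became -0.67 with a pseudocount of 1, -0.99 in 2CIA libraries alone and -0.39 to 0.89 with a mouse left out. Ifi214 became 0.297, 0.029 and 0.0673 under trimmed-mean scaling, median-of-ratios scaling and each library as a sample, 0.48 with the mouse as a replicate block, and -0.51 to 0.45 with a mouse left out, and Mndal became -0.70 in 2CIA libraries alone. Between healthy organs Mndal became 0.32 with each library as a sample and 1.19 in 2CIA libraries alone, and Ifi209 -0.37 to 0.91 with a mouse left out. The replicate block changed no call of a member. All 48 recomputed group means of blood and lymph node stayed within 1 SD, without haemoglobin genes in the total or with each library as a sample. Depth per unit is unknown after smoothing.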
